A study of Mus musculus with 12 samples.

Results

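Expression of 8 genes that are used as markers of tubule injury, Havcr1, Lcn2, Spp1, Clu, Vcam1, Sox9, Cd44 and Anxa2, was examined in whole kidney tissue of mice with adenine-induced chronic kidney disease (CKD). The 8 genes were chosen with earlier results of these data known, and their rows were found by gene name alone. Each name matched 1 row of the deposited table, giving 8 of 22053 rows. All 8 passed the filter on low values, which required at least 1 FPKM (fragments per kilobase of a transcript and per mapped fragment of its library, on a fixed scale) in at least 4 mice and left 13148 genes. The study asked how CKD changes the kidney and whether iron dextran therapy slows the disease. RNA sequencing was done on 12 C57BL/6 mice in 3 groups of 4, with 1 library per mouse. CKD mice received a diet with 0.2% adenine for 8 weeks, from 8 to 16 weeks of age, and a weekly intraperitoneal injection of PBS. Iron-treated CKD mice (CKD+Fe) received the same adenine diet and weekly intraperitoneal iron dextran at 0.5 g per kg. Control mice received the diet without adenine and the PBS injections. The sex of the mice was not given in the sources used here. Mice are named below by the numbers in the labels.

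Injured tubule cells lose transport functions and switch on a set of genes for secreted, adhesive and cytoskeletal proteins. Havcr1 encodes kidney injury molecule-1 and Lcn2 encodes neutrophil gelatinase-associated lipocalin, which are both measured in urine as injury markers. Sox9 is switched on in tubule cells during regeneration, and Vcam1, Spp1 and Cd44 are known from tubule cells that fail to complete repair, but leukocytes, endothelium and fibroblasts also make several of these transcripts. In whole tissue, a change in the number of cells of a type and a change in the RNA made per cell cannot be told apart.

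Promoter sequences are shown because the 8 genes moved together in CKD and the windows let their start regions be compared. RefSeq windows on build GRCm38.p6, from 250 bases before to 50 bases after a transcript start, were found for 5 of the 8 genes, with 8 windows in all. Clu, Vcam1 and Sox9 had no entry. The stretches below lie before the start and outside the exons annotated by GENCODE, are written 5′ to 3′ on the strand of the gene, and carry in capitals the letters of a motif match. They are Spp1 at chr5:104434861-104435110 on the plus strand, Anxa2 at chr9:69453433-69453619 on the plus strand, the third Havcr1 window at chr11:46750918-46751167 on the plus strand, and Cd44 at chr2:102901666-102901915 on the minus strand.
Spp1: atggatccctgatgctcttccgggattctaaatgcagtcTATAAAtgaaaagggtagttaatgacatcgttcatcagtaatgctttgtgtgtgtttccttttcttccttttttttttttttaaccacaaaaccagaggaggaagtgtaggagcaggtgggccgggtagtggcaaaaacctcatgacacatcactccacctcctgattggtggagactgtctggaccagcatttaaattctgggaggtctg
Anxa2: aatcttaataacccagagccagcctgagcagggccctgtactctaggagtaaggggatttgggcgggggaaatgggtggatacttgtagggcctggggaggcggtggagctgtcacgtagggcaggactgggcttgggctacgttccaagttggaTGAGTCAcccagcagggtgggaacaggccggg
Havcr1: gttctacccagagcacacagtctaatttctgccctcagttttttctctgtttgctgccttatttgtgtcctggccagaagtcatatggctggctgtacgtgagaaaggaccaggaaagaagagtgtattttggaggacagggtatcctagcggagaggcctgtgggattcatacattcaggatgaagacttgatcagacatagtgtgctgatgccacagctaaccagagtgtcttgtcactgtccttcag
Cd44: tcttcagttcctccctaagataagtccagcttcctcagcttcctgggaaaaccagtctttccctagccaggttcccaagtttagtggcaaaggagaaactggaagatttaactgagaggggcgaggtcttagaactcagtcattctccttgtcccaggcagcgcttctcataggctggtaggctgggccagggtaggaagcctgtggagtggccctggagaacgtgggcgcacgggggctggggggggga

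Both strands of each window were searched for 5 motifs. The AP-1 motif was TGANTCA and the TEAD motif was GGAATG. The STAT motif was TTCNNNGAA and the TATA box was TATAAA, and the NF-kB motif was searched in its usual degenerate form. Anxa2 held TGAGTCA with its first base at position -95 from the start and TATAAA at -17, the second of which lies in annotated exon bases and is not printed. Spp1 held TATAAA at -211. The third Havcr1 window held TGAATCA at position 11 after the start, beyond the stretch shown. The matches did not overlap each other, and the Lcn2 and Cd44 windows held none of the 5 motifs. Among all 32851 windows of the table, the share with a match was 7.81% for AP-1, 14.7% for TEAD, 8.3% for STAT, 13.6% for the TATA box and 6.93% for NF-kB. A match describes the letters of a window and does not show that a factor binds there.

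Samples were compared before the members were tested. Depth, estimated from how finely low FPKM values were spaced, was about 18300000 to 26200000 reads per mouse. The tissue carried kidney markers, with 15 proximal tubule genes summing to between 75298.9 and 98395.3 FPKM in control mice, 2261.8 and 9766.6 in CKD mice and 3369.1 and 13095.9 in CKD+Fe mice. Most of the control sums came from 1 gene, Kap. It held a mean of 11.2% of all listed FPKM in control mice, 0.643% in CKD mice and 0.791% in CKD+Fe mice. The median log2 fold change of the 15 genes in CKD against control was -2.21. In these FPKM most genes were higher in the adenine-fed mice, and the median gene had a log2 fold change of 0.502 in CKD against control. Median-of-ratios rescaling moved that median to -0.038, so changes are to be read against it. Earlier results of these data set 3 mice apart from their groups, which were control mouse 042301, CKD mouse 110310 and CKD+Fe mouse 042702. Control mouse 042301 had a summed level of 7 urothelium genes of 141.5 FPKM, against 1.4 to 53.3 FPKM in the other control mice. Log2 fold changes without these 3 mice are given beside each comparison.

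All 8 injury markers rose in CKD mice as compared with control mice, by 4.79-fold for Anxa2 to 127.2-fold for Lcn2 in the ratio of mean FPKM. In 8 of 8 members the lowest CKD mouse lay above the highest control mouse, which held for 44.6% of all genes tested. On the log2(FPKM + 1) scale, 8 of 8 members passed an adjusted p of 0.05 as higher, where 54.6% of all genes tested did so. The median log2 fold change was 4.16 for the members and 0.502 for all genes. Lcn2 had the highest log2 fold change of all 13148 genes tested, Havcr1 ranked 3, Spp1 ranked 11 and Vcam1 ranked 15. The next members were Cd44 at rank 52, Clu at 60, Sox9 at 178 and Anxa2 at 326. These ranks are on the log2(FPKM + 1) scale, which places low genes such as Sox9 and Cd44 below their ratios of means, 30.4-fold and 29.9-fold. Standard errors, adjusted p values (limma, Benjamini-Hochberg over all genes tested) and exact permutation tests are given with each gene.

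**Figure D1:**
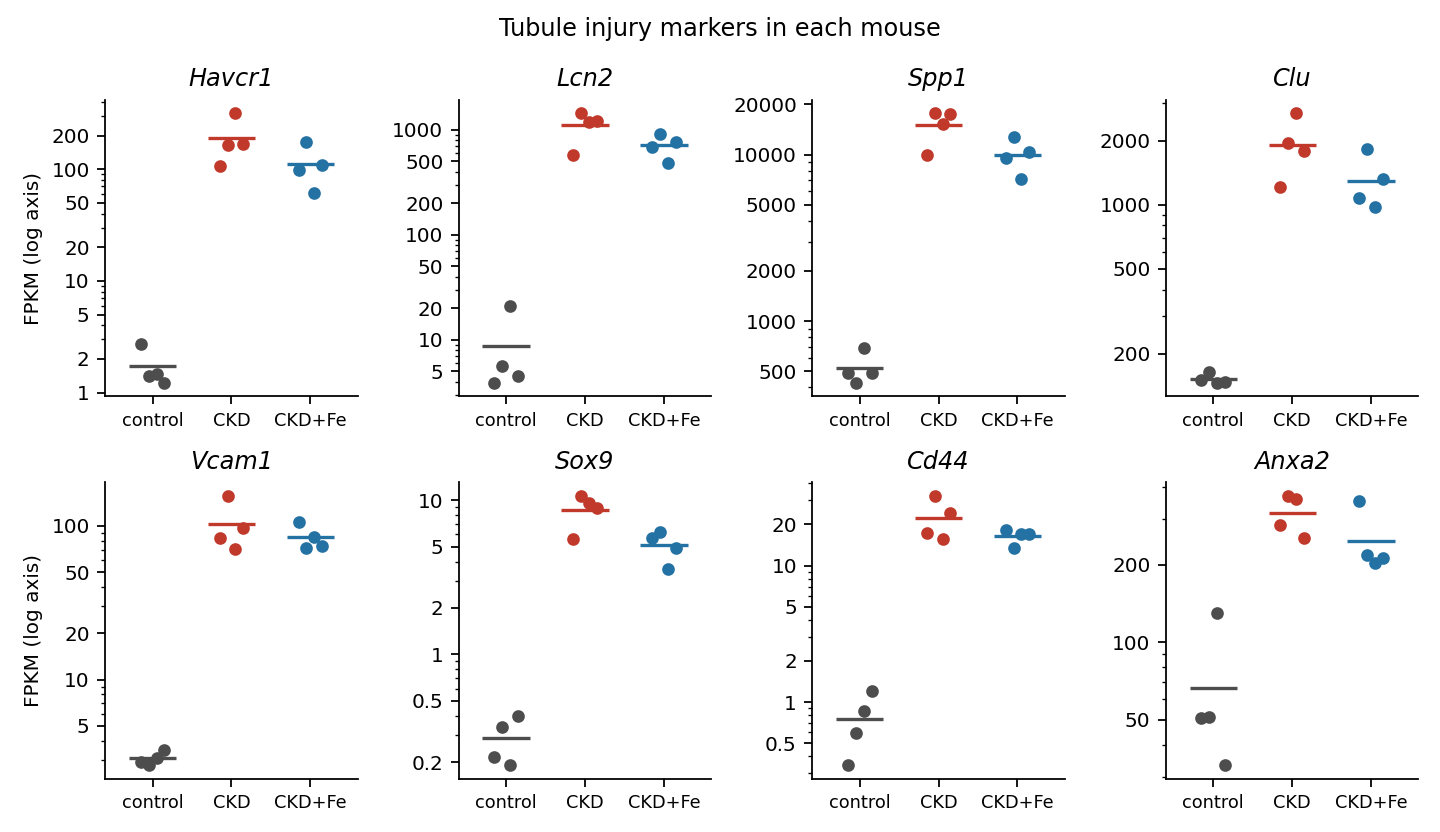
Expression of each injury marker in each mouse, in FPKM on a log axis that differs between panels, with 4 mice per group as points and the group mean as a line. Every CKD and CKD+Fe mouse sits above every control mouse in all 8 panels, and the points of CKD and CKD+Fe overlap in all 8.

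The 3 members that encode secreted proteins had the highest levels in CKD mice. Lcn2, a lipocalin that binds iron-carrying siderophores, was at 3.88, 5.61, 20.8 and 4.54 FPKM in control mice 012811, 012822, 042301 and 042310. It reached 572.7, 1441.6, 1199.8 and 1222.5 FPKM in CKD mice 021320, 022301, 110310 and 120102. CKD+Fe mice 042702, 062910, 111710 and 122320 were at 692.9, 915.1, 481.7 and 761.4 FPKM. One control mouse was several times above the other control mice but far below any adenine-fed mouse. Mean expression rose from 8.72 ± 8.12 FPKM to 1109.2 ± 374 FPKM (SD, n = 4), a log2 fold change of 7.05 (standard error 0.42, adjusted p = 4.56e-08 by limma). The exact two-sided permutation p was 0.0286, the smallest that 4 mice against 4 allow, and 0.0429 after adjustment over the 24 tests of single members. These exact values were the same for each of the 8 members in CKD against control and in CKD+Fe against control.

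Spp1 encodes osteopontin, a secreted ligand of integrins and of Cd44. Its expression was 485.3, 425.5, 687.0 and 485.6 FPKM in the control mice, in the same order. It was 9968.0, 17694.3, 15277.5 and 17565.6 FPKM in the CKD mice and 9547.5, 12738.9, 7124.2 and 10319.3 FPKM in the CKD+Fe mice. Among all listed genes Spp1 ranked 145 to 202 by FPKM in control mice and first or second in each of the 8 adenine-fed mice. The mean rose from 520.8 ± 114 to 15126.4 ± 3613.6 FPKM (SD, n = 4), with a log2 fold change of 4.84 (standard error 0.26, adjusted p = 2.94e-08 by limma). A same-strand gene model, Gm42793, overlaps Spp1 in the annotation, and how reads there were divided was not given in the sources used here.

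Clu encodes clusterin, a secreted chaperone. It was the most even member among control mice, at 150.0, 165.2, 146.0 and 147.2 FPKM. The CKD mice were at 1210.4, 1950.9, 2686.8 and 1793.8 FPKM, and the CKD+Fe mice at 1076.4, 1816.4, 974.1 and 1323.7 FPKM. The lowest adenine-fed mouse was thus several times above the highest control mouse. From 152.1 ± 8.89 FPKM in control mice, Clu rose to 1910.5 ± 608 FPKM in CKD mice (SD, n = 4), a log2 fold change of 3.59 (standard error 0.24, adjusted p = 9.28e-08 by limma).

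The 3 surface proteins started from low levels. Havcr1, a phosphatidylserine receptor with which injured proximal tubule cells take up debris, was at 2.75, 1.42, 1.47 and 1.22 FPKM in control mice. It was at 107.3, 165.3, 316.6 and 166.6 FPKM in CKD mice, and at 98.3, 173.2, 61.4 and 110.0 FPKM in CKD+Fe mice. Mouse 110310 stood above the other CKD mice, and mouse 111710 was the lowest of the adenine-fed mice. Havcr1 rose 110.1-fold, from 1.72 ± 0.696 to 188.9 ± 89.5 FPKM (SD, n = 4), with a log2 fold change of 6.05 (standard error 0.33, adjusted p = 3.24e-08 by limma). Among the other genes of the TIM family, Havcr2, a checkpoint receptor of immune cells, rose from 0.418 to 3.03 FPKM (log2 fold change 1.5, adjusted p = 1.6e-05). At that control mean, Havcr2 passed the filter on low values mainly through adenine-fed mice. Timd2, a receptor for ferritin heavy chain, fell from 40.7 to 24.3 FPKM (log2 fold change -0.74, adjusted p = 0.0366), a call that was lost when any of 3 control mice (012811, 012822, 042310) or any of 3 CKD mice (021320, 022301, 120102) was left out. Timd4 did not pass the filter on low values.

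Vcam1 encodes an adhesion molecule that binds integrins with the alpha4 subunit and is also made by endothelium. The control mice were at 2.92, 2.76, 3.07 and 3.50 FPKM. CKD mice were at 82.9, 157.7, 71.1 and 97.6 FPKM and CKD+Fe mice at 106.7, 71.5, 84.7 and 74.4 FPKM. Here mouse 110310, which was highest for Havcr1 and Clu, was the lowest of the adenine-fed mice. The rise was from 3.06 ± 0.321 to 102.3 ± 38.5 FPKM (SD, n = 4), with a log2 fold change of 4.60 (standard error 0.21, adjusted p = 1.63e-08 by limma). The antisense gene Gm43109 overlaps Vcam1, and whether the FPKM were computed by strand was not given in the sources used here.

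Cd44, a receptor for hyaluronan and osteopontin that leukocytes also carry, was at 0.344, 0.590, 0.858 and 1.21 FPKM in control mice. It was at 17.2, 32.5, 15.6 and 24.4 FPKM in CKD mice and at 18.3, 13.5, 17.0 and 17.0 FPKM in CKD+Fe mice. The iron-treated mice were the more even of the adenine-fed groups, with an SD of 2.06 FPKM against 7.75 FPKM. Mean Cd44 expression rose from 0.752 ± 0.373 to 22.4 ± 7.75 FPKM (SD, n = 4), with a log2 fold change of 3.71 (standard error 0.22, adjusted p = 4.61e-08 by limma).

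Sox9, the only transcription factor among the 8 genes, was the lowest in every group. Control mice were at 0.216, 0.337, 0.191 and 0.401 FPKM, for an estimated 18 to 38 reads per mouse over its transcript of 4135 bases. CKD mice were at 5.60, 10.7, 9.57 and 8.89 FPKM, for at most an estimated 928 reads, and CKD+Fe mice at 5.72, 6.19, 3.58 and 4.92 FPKM, for an estimated 358 to 520 reads. The control values thus rest on few reads, and as each was below 1 FPKM, Sox9 passed the filter on low values through adenine-fed mice alone. The rise from 0.286 ± 0.0996 to 8.69 ± 2.2 FPKM (SD, n = 4) was 30.4-fold as a ratio of means, and the log2 fold change of FPKM + 1 was 2.88 (standard error 0.19, adjusted p = 9.28e-08 by limma). The added 1 FPKM understates the change of genes at this level, and with 0.1 FPKM added the log2 fold change was 4.50.

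Anxa2, a calcium-dependent phospholipid-binding protein, had the smallest rise of the 8 genes and a wide spread among control mice, at 50.8, 51.1, 129.3 and 33.2 FPKM. CKD mice were at 283.6, 370.4, 358.7 and 253.8 FPKM and CKD+Fe mice at 353.7, 217.7, 203.6 and 212.5 FPKM. The high control mouse, 042301, was also the highest control mouse for Lcn2 and Spp1 and the one with the highest sum of urothelium genes, and the part of these cells in the values was not tested. Anxa2 rose from 66.1 ± 42.9 to 316.6 ± 56.9 FPKM (SD, n = 4), with a log2 fold change of 2.41 (standard error 0.32, adjusted p = 2.75e-05 by limma). Without mice 042301, 110310 and 042702, the log2 fold changes in CKD against control were 2.73 for Anxa2, 7.48 for Lcn2, 5.73 for Havcr1, 4.97 for Spp1, 4.76 for Vcam1, 3.89 for Cd44, 3.39 for Clu and 2.80 for Sox9, and 8 of 8 stayed past the threshold. The microRNA gene Mir3109 and the antisense gene Gm16144 lie within Anxa2.

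Together the 8 genes took 0.101% to 0.14% of the summed FPKM of all listed genes in control mice, 2.4% to 4.2% in CKD mice and 1.67% to 2.79% in CKD+Fe mice. Spp1 alone held a mean of 0.0796% in control mice, 2.8% in CKD mice and 1.79% in CKD+Fe mice. The order of mean levels in control mice was Spp1, Clu, Anxa2, Lcn2, Vcam1, Havcr1, Cd44 and Sox9, and of neighbours in this order only Cd44 and Sox9 had overlapping ranges. In CKD mice it was Spp1, Clu, Lcn2, Anxa2, Havcr1, Vcam1, Cd44 and Sox9, so Lcn2 passed above Anxa2 and Havcr1 above Vcam1. Ranges in CKD mice overlapped between Clu and Lcn2, between Anxa2 and Havcr1 and between Havcr1 and Vcam1. CKD+Fe mice had the same order as CKD mice, with only Havcr1 and Vcam1 overlapping.

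**Figure D2:**
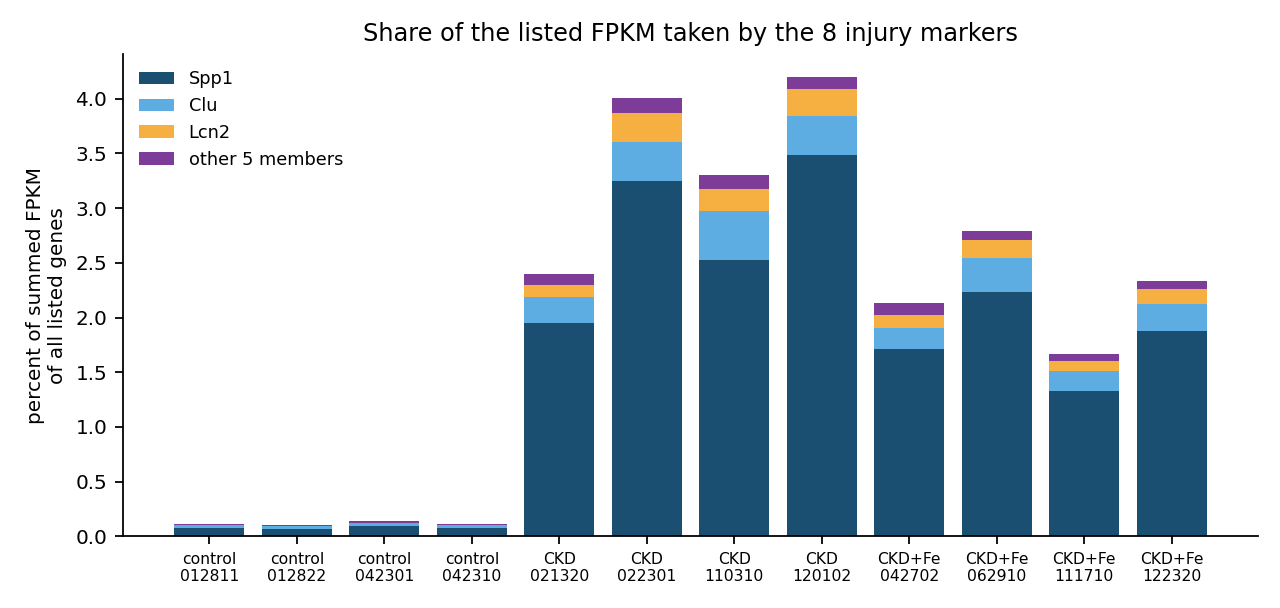
Share of the summed FPKM of all listed genes taken by the 8 injury markers, in percent, as 1 stacked bar per mouse with Spp1, Clu, Lcn2 and the other 5 genes. The bars are 0.101% to 0.14% in control mice, 2.4% to 4.2% in CKD mice and 1.67% to 2.79% in CKD+Fe mice, and Spp1 is the largest segment of each.

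Iron therapy was the second comparison, with CKD+Fe against CKD mice. The mean of each of the 8 markers was lower in CKD+Fe mice, but none passed the adjusted threshold (0 of 8 lower and 0 of 8 higher), where 0.0% of all genes were called lower and 0.00761% higher. All 8 log2 fold changes were negative, where 50.1% of all genes were negative, and their median was -0.57 against -0.001 for all genes. At an unadjusted p under 0.05, 4 of 8 members were lower, namely Sox9, Havcr1, Spp1 and Clu, where 2.73% of all genes were lower. The smallest exact permutation p of a member was 0.0857, for Spp1 and Sox9. The groups overlapped in all 8 members, and in 1.09% of all genes every CKD+Fe mouse was below every CKD mouse. Each of these comparisons used the same 4 CKD mice, so the 8 signs are not independent of each other.

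Sox9 had the smallest p of the members, with a log2 fold change of -0.66 (95% interval -1.07 to -0.25, unadjusted p = 0.00408, adjusted p = 0.458 by limma). Its CKD+Fe mean of 5.1 ± 1.14 FPKM was 0.587 times the CKD mean. Havcr1 had the most negative log2 fold change, -0.75 (95% interval -1.45 to -0.05, unadjusted p = 0.0381, adjusted p = 0.8 by limma). Its mean was 110.7 ± 46.5 FPKM (SD, n = 4), which was 0.586 times the CKD mean, and without CKD mouse 110310 the log2 fold change was -0.47. Of the 4 CKD+Fe mice, 062910 was above 3 of the 4 CKD mice for Havcr1, and 2 were below the lowest CKD mouse.

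Spp1 was at 9932.5 ± 2313.7 FPKM in CKD+Fe mice (SD, n = 4), 0.657 times the CKD mean. Its log2 fold change was -0.60 (95% interval -1.15 to -0.05, adjusted p = 0.793 by limma), and -0.24 after quantile normalization. By FPKM it ranked 1 in CKD mouse 022301 and 2 in the other adenine-fed mice. Quantile normalization sets values by rank, so the -0.24 does not measure the difference in Spp1 level. Clu was at 1297.6 ± 376 FPKM, 0.679 times the CKD mean, with a log2 fold change of -0.54 (95% interval -1.05 to -0.04, adjusted p = 0.8 by limma). Lcn2 was at 712.8 ± 180 FPKM, 0.643 times the CKD mean, with an interval from -1.49 to 0.30 around a log2 fold change of -0.59, which was -0.89 without CKD mouse 021320. For these 3 secreted proteins mouse 111710 was the lowest of the adenine-fed mice and CKD mouse 021320 ranked 6 or 7 of 8, below at least 2 CKD+Fe mice.

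For the other members the interval of the difference also included 0. The log2 fold change was -0.38 for Cd44 (95% interval -0.85 to 0.10), at 16.5 ± 2.06 FPKM in CKD+Fe mice, and -0.18 without CKD mouse 022301. It was -0.38 for Anxa2 (95% interval -1.08 to 0.32), at 246.9 ± 71.4 FPKM, where 3 CKD+Fe mice were below every CKD mouse and mouse 042702 was above 2 of the 4. Vcam1 differed least, at 84.3 ± 15.9 FPKM and a log2 fold change of -0.23 (95% interval -0.68 to 0.22, exact permutation p = 0.5429). Vcam1 was at 0.0017 without CKD mouse 022301, -0.38 without CKD mouse 110310 and -0.15 without CKD+Fe mouse 062910. Without mice 042301, 110310 and 042702, the log2 fold changes were -0.66 for Sox9, -0.58 for Spp1, -0.57 for Cd44, -0.53 for Lcn2, -0.50 for Vcam1, -0.50 for Anxa2, -0.44 for Havcr1 and -0.28 for Clu, with 0 of 8 called and adjusted p values from 0.142 to 0.521 (limma).

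**Figure D3:**
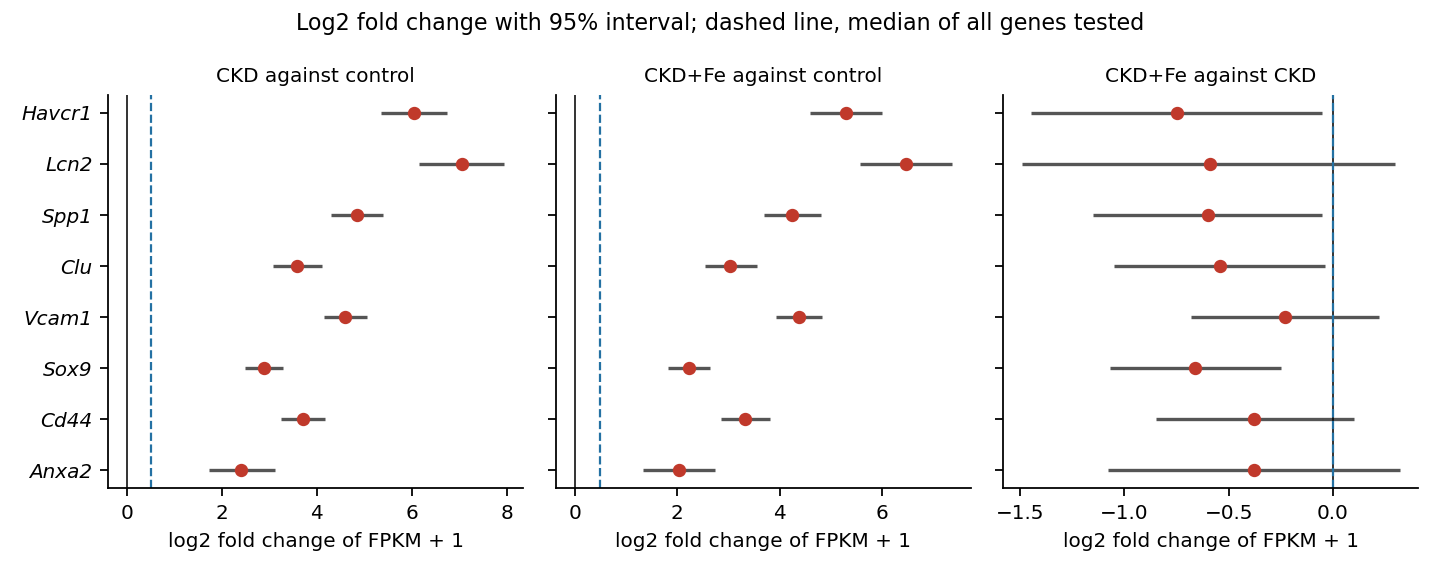
Log2 fold change of FPKM + 1 for each injury marker in 3 comparisons, as points with 95% intervals from the limma fit, with a dashed line at the median of all genes tested. The points lie between 2.41 and 7.05 in CKD against control and between 2.03 and 6.46 in CKD+Fe against control, and between -0.75 and -0.23 in CKD+Fe against CKD, where the intervals of Lcn2, Vcam1, Cd44 and Anxa2 include 0.

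Some mice were high or low for most of the markers, but the order of the mice differed between members. CKD mouse 022301 was the highest of the 8 adenine-fed mice for 6 members and among the top 4 for all 8. CKD mouse 110310 was the highest for the other 2, Havcr1 and Clu, but the lowest for Vcam1 and ranked 7 for Cd44. At the low end, CKD+Fe mouse 111710 was the lowest for 6 members, and mouse 122320 was in the bottom 4 for all 8. CKD mouse 021320 was in the bottom 4 for 6 members, while CKD+Fe mouse 062910 was in the top 4 for 5. The latter was the lowest for Cd44 and ranked 7 for Vcam1. CKD+Fe mouse 042702 ranked 7 for Havcr1, Spp1 and Clu, but 2 for Vcam1 and 3 for Cd44 and Anxa2. The groups were thus not separated by these genes in single mice.

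Under iron therapy the markers remained above control levels. All 8 were called higher in CKD+Fe mice than in control mice, where 54.4% of all genes were called higher, with a median log2 fold change of 3.79 against 0.5 for all genes. The largest value was 6.46 for Lcn2 (adjusted p = 1.76e-07 by limma), followed by 5.30 for Havcr1, 4.38 for Vcam1, 4.24 for Spp1 and 3.33 for Cd44. Clu was at 3.04, Sox9 at 2.23 and Anxa2 at 2.03 (adjusted p = 0.000135 by limma). Every CKD+Fe mouse was above every control mouse in 8 of 8 members, where this held for 50.4% of all genes. Without mice 042301, 110310 and 042702 the log2 fold changes were 6.95 for Lcn2, 5.29 for Havcr1, 4.39 for Spp1, 4.26 for Vcam1, 3.32 for Cd44, 3.10 for Clu, 2.23 for Anxa2 and 2.14 for Sox9, and 8 of 8 were called. This comparison shares its control mice and its CKD+Fe mice with the other comparisons.

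Other genes linked to tubule injury and failed repair were taken from a list of 30, of which 29 were tested. In CKD, 27 of 29 rose and none fell, with a median log2 fold change of 2.41, where 54.6% of all genes tested were called higher and the median was 0.502. The highest were C3, the central complement component, from 3.77 to 333.2 FPKM (log2 fold change 6.01, adjusted p = 2.94e-08 by limma), the neutrophil chemokine Cxcl1 at 4.71, and Cp, the ferroxidase ceruloplasmin, at 4.02. Cxcl1, with a control mean of 0.525 ± 0.261 FPKM (SD), passed the filter on low values through adenine-fed mice alone. The lowest were Hmox1, the heme-degrading enzyme heme oxygenase-1, at -0.29 (adjusted p = 0.439), the urinary injury marker Igfbp7 at 0.29 (adjusted p = 0.24), and the integrin subunit Itgb6 at 0.86 (adjusted p = 0.00655). Igfbp7 was at -0.33 (adjusted p = 0.204) after median-of-ratios rescaling but was called higher at 0.54 (adjusted p = 0.00634) after quantile normalization, and Hmox1 was called lower at -0.90 after median-of-ratios rescaling, while Itgb6 lost its call (0.27, adjusted p = 0.348). In CKD+Fe against CKD, 0 of 29 passed, 27 were negative and 2 positive, and the median was -0.33. In CKD+Fe against control 26 of 29 were called higher, where 54.4% of all genes tested were. The list was written with earlier results of these data known.

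Ligands, receptors and processing enzymes known to act with the 8 proteins formed a list of 26, of which 21 were tested. In CKD 17 of 21 rose and 1 fell, with a median log2 fold change of 1.22, beside the 54.6% and the median of 0.502 of all genes. After median-of-ratios rescaling 12 were called higher and 3 lower, beside 3486 and 4090 of all genes. After quantile normalization these were 13 and 3, beside 3060 and 3363. The highest were Plaur, the urokinase receptor, at 2.21 (adjusted p = 3.94e-06 by limma), the fibronectin receptor subunit Itga5 at 1.67 and Itgb3, a subunit of an osteopontin receptor, at 1.62. The subunits Itgav (1.38, with an adjusted p of 0.0502 after median-of-ratios rescaling) and Itgb1 (1.29) of osteopontin receptors also rose, as did Itga4 (1.29), a subunit of the receptor for Vcam1, and S100a10 (1.22), the binding partner of Anxa2. Itgb3, Itga4 and Lrp8, which is also counted as higher, had control means of 0.264, 0.377 and 0.258 FPKM. These genes passed the filter on low values through adenine-fed mice alone. The gene that fell was Lrp2, which encodes megalin, an endocytic receptor of the proximal tubule that takes up filtered Lcn2, at -1.64 (adjusted p = 0.000545). The other lowest values were -0.35 for the hyaluronidase Hyal2 (adjusted p = 0.0771) and 0.01 for Slc22a17, an Lcn2 receptor, and both were called lower after median-of-ratios rescaling, at -0.95 and -0.57. No partner passed in CKD+Fe against CKD. In CKD+Fe against control 17 were called higher, but 8 after median-of-ratios rescaling and 10 after quantile normalization. Over all genes, 7159 (54.4%) were called higher in that comparison as deposited, 3337 after median-of-ratios rescaling and 2605 after quantile normalization. The hyaluronan synthases Has1, Has2 and Has3, the hyaluronidase Cemip and Plg did not pass the filter on low values.

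Anxa2 was not the annexin with the largest rise. Of 11 annexins tested, 8 rose in CKD and 1 fell, led by Anxa1 at a log2 fold change of 3.37 (from 10.7 to 111.2 FPKM) and Anxa3 at 3.18 (from 10.7 to 108.7 FPKM), ahead of Anxa2 at 2.41. The share of annexins called higher stands beside 54.6% of all genes, and their median log2 fold change of 1.44 beside 0.502. Anxa13 fell by 1.34 on the log2 scale, from 4.92 to 1.26 FPKM. Anxa7 rose by 0.26 as deposited, and its direction turned to -0.35 after median-of-ratios rescaling. In CKD+Fe against CKD none of the 11 passed. Without mice 042301, 110310 and 042702, Anxa1 passed as lower, at -0.73 (adjusted p = 0.0385 by limma) against -0.53 (adjusted p = 0.838) with them.

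**Figure D4:**
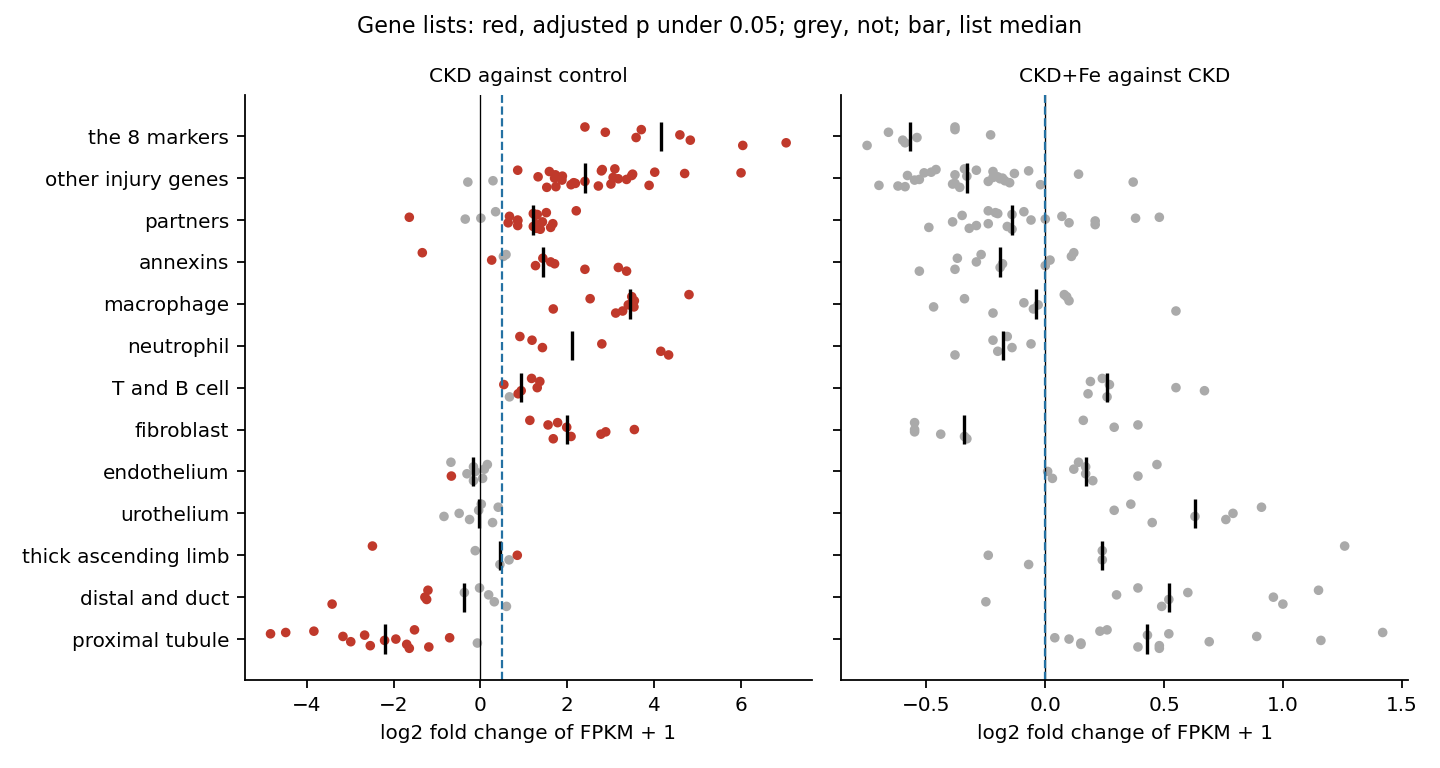
Log2 fold change of FPKM + 1 of each gene in 13 lists, in CKD against control on the left and CKD+Fe against CKD on the right, with the list median as a bar and the median of all genes as a dashed line. Red points passed an adjusted p of 0.05 and grey points did not. The medians on the left are 4.16 for the 8 markers, 2.41 for other injury genes, 3.45 for macrophage and -2.21 for proximal tubule genes, and no point on the right is red.

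Markers of some cell types differed between control and CKD mice, and none was called in CKD+Fe against CKD. Of 15 proximal tubule genes 14 fell in CKD (median log2 fold change -2.21). Of all 13148 genes tested, 1748 were called lower and 54.6% higher as deposited. These stand beside each count for CKD below on the deposited scale. Beside the rescaled counts below stand 3486 genes called higher and 4090 lower after median-of-ratios rescaling, and 3060 and 3363 after quantile normalization. In CKD+Fe against CKD all 15 proximal tubule genes were positive with none called (median 0.43), where 50.1% of all genes were negative. All tested endothelial, urothelium and T and B cell genes were also positive, as were 8 of 9 distal and collecting duct and 3 of 5 thick ascending limb genes. All 6 neutrophil genes tested, 6 of 10 macrophage genes and 6 of 9 fibroblast genes were negative. All 10 macrophage genes rose in CKD (median 3.45), with summed levels of 122.3 to 251.5 FPKM in control mice, 1791.8 to 3709.8 in CKD mice and 1659.0 to 3770.1 in CKD+Fe mice. The highest macrophage sums were those of CKD+Fe mouse 042702 and CKD mouse 022301, which were also the mice highest for Vcam1. The next highest, 2848.2 FPKM, was that of CKD mouse 110310, which was the lowest of the adenine-fed mice for Vcam1. CKD mouse 120102, which ranked 3 for Vcam1, had the lowest macrophage sum of the CKD mice, 1791.8 FPKM. The 10 neutrophil genes summed to 2.17 to 7.97 FPKM in control mice, 63.0 to 235.5 in CKD mice and 53.2 to 150.1 in CKD+Fe mice. The sum was highest in mouse 022301, which was also the highest adenine-fed mouse for Lcn2 and for 6 members in all. CKD+Fe mouse 042702, next at 150.1 FPKM, ranked 6 of the 8 adenine-fed mice for Lcn2. CKD mouse 120102, at 148.4 FPKM, ranked 2, and CKD mouse 110310, at 64.0 FPKM, ranked 3. All 6 neutrophil genes tested rose, but 4 after median-of-ratios rescaling and 5 after quantile normalization. Of the 6, Retnlg, Csf3r and Cxcr2 were under 1 FPKM in every control mouse. They thus passed the filter on low values only through adenine-fed mice, as did Itgam of the macrophage and Cd4 of the T and B cell genes. The granule genes Ngp and Camp, at 0 in every control mouse and under 1 FPKM in every adenine-fed mouse, were not tested. All 9 fibroblast genes rose (median 1.99), with sums of 93.2 to 129.0 FPKM in control mice, 489.4 to 885.9 in CKD mice and 410.1 to 571.8 in CKD+Fe mice. The endothelial genes summed to 220.6 to 497.0 FPKM in control mice and 173.1 to 329.4 in CKD mice, with 1 of 9 lower. Of T and B cell genes 6 of 7 tested rose, but 3 after median-of-ratios rescaling and 0 after quantile normalization, and endothelial genes called lower numbered 6 and 4 of 9 under these scalings. Of 7 urothelium genes none was called. In the other nephron segments, 1 of 5 thick ascending limb genes rose and 1 fell (0 and 2 after median-of-ratios rescaling), and 4 of 9 distal and collecting duct genes fell. Without mice 042301, 110310 and 042702, the proximal tubule genes Slc22a8 and Miox and the distal and collecting duct genes Pvalb, Aqp3 and Atp6v1g3 passed as higher in CKD+Fe than in CKD mice. The part of these cells in the levels of the 8 markers was not tested.

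Similarity of profiles was measured as the root mean square distance between centred log2(FPKM + 1) profiles over the 12 mice, among 13124 genes with a value in every mouse and outside the 8. It is dominated by the step from control to adenine-fed mice, which most of these genes share. Havcr1 was nearest to Timp1, an inhibitor of metalloproteinases, at 0.404, then to Serpina10 at 0.516 and C3 at 0.632. Lcn2 shared 2 of these neighbours, with Timp1 at 0.69 and C3 at 0.74, followed by the epithelial metalloproteinase Mmp7 at 0.827. Spp1 was nearest to Serpina10, also a neighbour of Havcr1, at 0.293, to the diamine oxidase Aoc1 at 0.324 and to the interleukin-1 family cytokine Il1f6 at 0.407. Clu was nearest to the retinoic acid-forming enzyme Aldh1a2 at 0.268, the chemokine Cxcl17 at 0.279 and fibronectin, Fn1, at 0.287.

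The adhesion receptors had other neighbours. For Vcam1 these were the lectin Clec4n at 0.252, the chemokine Ccl6 at 0.256 and Ms4a6d at 0.276. For Cd44 they were the chemokine Ccl9 at 0.188, the integrin Itgam, which is in the macrophage list, at 0.21 and the leukocyte tetraspanin Cd53 at 0.221. Sox9 was nearest to the cytokine Lif at 0.152, the extracellular sulfatase Sulf1 at 0.162 and the Wnt pathway inhibitor Nkd2 at 0.196, and Anxa2 to Litaf at 0.183, the inflammasome adaptor Pycard at 0.189 and the sialyltransferase St6gal1 at 0.204. Distances grow with the size of the change, so they are to be compared within 1 member.

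On build GRCm38, the listed genes span chr11:46735080-46779578 on the plus strand for Havcr1, chr2:32384633-32388252 on the minus strand for Lcn2, chr5:104435118-104441050 on the plus strand for Spp1, chr14:65968483-65981548 on the plus strand for Clu, and chr3:116109949-116129688 on the minus strand for Vcam1. Sox9 spans chr11:112782224-112787760 on the plus strand, Cd44 chr2:102811141-102901665 on the minus strand and Anxa2 chr9:69453620-69491795 on the plus strand. The table lists 1 transcript for Sox9 and 4 to 9 for the other members, with 1 FPKM per gene, so changes between transcripts of a gene were not examined.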

How the data were processed

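Whole kidney RNA of 12 mice, 4 per group, was sequenced by the study with stranded mRNA libraries and single-end reads of 50 cycles. The submitters' processing notes name bcl2fastq 2.19, STAR 2.5.2, Cufflinks 2.1.1 and GRCm38. The deposited values are FPKM, 1 per gene and mouse, which are relative to the total of each mouse; 30 values in 17 genes marked as failed were treated as missing. The sources used here do not give the annotation or the handling of multiply mapped reads. Counts were not used, and depth was estimated from the smallest FPKM steps of 5224 genes with 1 transcript of over 1000 bases, so it is approximate.

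The limma package (version 3.58.1, R 4.3.3) was fitted to log2(FPKM + 1), with a variance trend and all 12 mice in 1 fit. A gene was tested if 4 or more mice had 1 FPKM or more (13148 genes), two-sided, with Benjamini-Hochberg adjustment and a threshold of 0.05. Single members were also tested by exact permutation over all 70 arrangements, adjusted over 24 tests. The scripts were tested on simulated data. Positions were matched to GENCODE M21 on GRCm38, where 99.9% of 21810 matched rows overlapped the gene of the same identifier. The alternatives tried were another pseudocount, other filters, median-of-ratios and quantile scaling, other fits, an adjusted cutoff of 0.5, which the study's sequencing methods give, and each mouse left out. Leaving out 3 mice together was chosen after seeing the data.

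All 8 members were named, as well as the 3 genes with the highest and the 3 with the lowest log2 fold change in CKD against control in the lists of other injury genes and partners, any gene of these lists past the threshold under iron, and the 3 genes nearest to each member. Other genes of the families and the partner subunits Itgav, Itgb1, Itga4 and S100a10 were named after their values were seen. The members and lists were chosen with earlier results of these data known. Mice were grouped by their labels. The sources used here do not give their cohorts, so a cohort that differs between groups cannot be told apart from the treatment. The p values weigh each group difference against the spread between these mice.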

Additional observations from a re-analysis of the deposited data

Results flagged for a closer look

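Within groups of 4 mice, 24 sets of values (8 members in 3 groups) were checked for a mouse far from the others by Dixon's test, which chance passes in about 1 in 20 groups, and 3 sets passed. Havcr1 was 2.75 FPKM in control mouse 012811, with the other control mice at 1.22 to 1.47 FPKM. Lcn2 was 20.8 FPKM in control mouse 042301, with the others at 3.88 to 5.61 FPKM. Anxa2 was 353.7 FPKM in CKD+Fe mouse 042702, with the others at 203.6 to 217.7 FPKM. Without mouse 042702 and the other 2 mice set apart, Anxa2 in CKD+Fe against CKD was at -0.50 (log2, adjusted p = 0.167 by limma) against -0.38 with them.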

How the results depend on the processing

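All calls of the 8 members against control, in CKD and in CKD+Fe, kept their direction and passed the threshold in the alternatives run (175 of 175 values in each comparison), except that Sox9 was not tested with a mean of at least 5 FPKM required. In CKD+Fe against CKD, an adjusted cutoff of 0.5 called 1 member lower, Sox9 at -0.66 (adjusted p = 0.458 by limma). Leaving out 1 mouse gave Vcam1 values from -0.38 to 0.0017, the last without CKD mouse 022301. Other values in this comparison that moved by over 1.5 times included Havcr1 (-0.47 without CKD mouse 110310), Lcn2 (-0.89 without CKD mouse 021320), Cd44 (-0.18 without CKD mouse 022301) and Spp1 (-0.24 after quantile normalization). The Spp1 value follows from its rank of 1 or 2 in every adenine-fed mouse, which quantile normalization uses in place of its level. With 3 mice left out together, Clu moved from -0.54 to -0.28 and Vcam1 from -0.23 to -0.50. The lowest adjusted p of any member and alternative was 0.0917, for Sox9 with array weights. Calls over all genes in CKD against control were 7181 higher and 1748 lower as deposited, 3486 and 4090 after median-of-ratios rescaling, and 3060 and 3363 after quantile normalization. After rescaling, Lcn2 was at 6.49, Havcr1 at 5.57, Vcam1 at 4.08 and Anxa2 at 1.80. In CKD+Fe against CKD, 1 gene of all was called higher and 0 lower, with 431 and 359 at an unadjusted p under 0.05, 79 and 56 with array weights and 51 and 32 without 3 mice. No paired analysis was possible because the groups share no replicate numbers. With 4 mice per group, exact tests cannot go below 0.0286, and the FPKM as used here come without an estimate of their counting error.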
